A study of Mus musculus with 33 samples.

Results

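The genes described here are 44 genes of the cell cycle and of DNA replication, taken by name from the 38899 genes listed in all 4 expression tables of a study of adult mouse bone marrow endothelial cells. They comprise 22 mitotic genes, 14 genes of DNA replication, 5 regulators of the G1/S and G2/M steps and the 3 D-type cyclins. Every one of the 44 was measured in all 11 groups, and all 44 passed the filter on low values in each of the 6 comparisons. That filter required 3 or more of the 6 libraries compared to reach 1 FPKM. FPKM is the number of fragments per kilobase of gene, scaled here by a factor for each library.

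A cell that leaves G1 does so when D-type and E-type cyclins with their kinases inactivate the pocket proteins and release E2F factors, which switch on the replication genes of S phase. Replication starts where the MCM helicase has been loaded on DNA, with PCNA as the sliding clamp of the polymerases, and the mitotic genes follow in G2 and M under the control of B-MYB and FOXM1. In adult bone marrow, endothelial cells line arteries and sinusoids and divide rarely unless vessels are being rebuilt, whereas many blood-forming cells around them cycle.

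The study sequenced RNA of bone marrow cells, in most groups after digestion of bone and flow sorting, with 3 libraries per group, from C57BL/6 mice aged 8 to 12 weeks. Untreated wildtype mice gave whole marrow (BMC), cells negative for lineage markers (Lin-) and, from the latter, the Sca1+ cKit+ fraction rich in stem cells (LSK). Cdh5-mTnG mice, whose reporter is driven by the promoter of the endothelial gene Cdh5, gave bone EC and diaphysis EC without treatment, and irradiated bone EC and 9Gy1D EC after irradiation with 9 Gy. Diaphysis EC came from the femur and the other groups from femur and tibia. Tamoxifen-treated Apln-CreERT2 R26-mTmG and Esm1-CreER R26-mTmG mice gave Apln+ EC and Esm1+ EC, which are the cells in which an Apln or Esm1 driven Cre had recombined the reporter. Vav1 control EC and Vav1 DTX EC are both labelled as diphtheria toxin treated Vav1-Cre R26-DTR Cdh5-mTnG mice, in which a Vav1-driven Cre, active in blood-forming cells and also in part of the endothelium, switches on the toxin receptor. The titles and column names alone tell both groups apart. Whether the 3 libraries of a group came from separate animals is not given in the labels, so the p-values measure the spread between these libraries, which may be technical. The time after irradiation is not given as a label.

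Depth, recovered from the values, ran from 1.55 M (mega) reads in the shallowest LSK library to 12.3 M in the deepest Vav1 DTX EC library, and the fewest reads behind any member was 5, for Ttk in 1 library of 9Gy1D EC. The sorted endothelial groups carried the endothelial markers, with a summed level of 14 pan-endothelial genes between 1087 and 6740 FPKM against 35.7 to 134 in BMC, Lin- and LSK. They were not free of blood cell RNA: 5 pan-leukocyte markers summed to between 230.1 and 2370 FPKM in the 24 endothelial libraries. In BMC, made with another library kit, they summed to 1463 to 1887, beside 1930 to 2153 in Vav1 control EC and 2056 to 2119 in Esm1+ EC. The 6 mature neutrophil markers summed to 82550 to 109700 in BMC, 83100 to 92490 in Vav1 control EC and 45880 to 46520 in bone EC. In irradiated bone EC they summed to 987.2 to 4401. In RNA from a mixed sort, fewer cells of a type and less RNA per cell cannot be told apart, which holds for every level. Of the libraries that stood apart from their group, 3 bear on these genes: Lin- replicate 3, Vav1 DTX EC replicate 2 and Apln+ EC replicate 1. The counts of called members are given with and without them, and so are some, not all, of the members whose call they change.

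The promoters of these genes differ in the short sequence elements they hold. RefSeq start sites (GRCm38.p6, 250 bases before to 50 after the start) were at hand for 34 of the 44 members, and 27025 promoters in all were searched on both strands. The cell cycle homology region (CHR, searched as TTTGAA or TTCGAA), an element of mitotic promoters, was found in 14 of 18 mitotic genes, 3 of 12 replication genes and 19.4% of all promoters. An E2F element (TTTGGCGC, TTTCCCGC, TTTCGCGC or TTTGCCGC) was found in 6 of 12 replication genes, which are Mcm3, Mcm5, Mcm6, Mcm7, Cdc6 and Cdt1, and in 1 mitotic gene, Cdk1, against 2.32% of all promoters. The CCAAT box, which binds NF-Y, was in 16 of 18 mitotic genes and 9 of 12 replication genes, against 37.9% of all promoters. A match describes letters in this window and does not show that a factor binds there. The searched E2F forms overlap one another and their reverse complements, so that paired matches in Mcm5 and Mcm6 share bases. Promoter windows were not used here for Ccna2, Aurkb, Kif20a, Tpx2, Mcm4, Gins2, Ccne2, Foxm1, Ccnd1 and Ccnd2. For the 3 members with more than 1 window the first listed was used.

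The 160 bases before the start are shown for 5 mitotic genes, to set the CHR elements of that set beside the E2F elements of the replication set. They lie at chr7:135716380-135716539 (strand -) for Mki67, chr11:99024190-99024349 (strand -) for Top2a, chr4:118437344-118437503 (strand -) for Cdc20, chr19:37376222-37376381 (strand +) for Kif11 and chr10:69352913-69353072 (strand -) for Cdk1. Capitals mark CHR matches on either strand and, in Cdk1, also the E2F match that lies 5′ of both CHR matches. The stretches of Cdc20 and Cdk1 precede the RefSeq start but reach into the genes as placed by GENCODE vM21. On the minus strand these genes begin at chr4:118437352 and chr10:69352938. The CHR match of Cdk1 nearer to the RefSeq start lies inside the gene so placed.
Mki67: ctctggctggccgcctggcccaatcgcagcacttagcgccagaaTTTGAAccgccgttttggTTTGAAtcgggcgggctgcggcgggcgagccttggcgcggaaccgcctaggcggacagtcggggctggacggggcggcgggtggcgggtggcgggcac
Top2a: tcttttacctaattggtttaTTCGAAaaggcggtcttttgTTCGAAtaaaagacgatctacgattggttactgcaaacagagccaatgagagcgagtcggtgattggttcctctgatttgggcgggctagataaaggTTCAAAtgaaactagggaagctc
Cdc20: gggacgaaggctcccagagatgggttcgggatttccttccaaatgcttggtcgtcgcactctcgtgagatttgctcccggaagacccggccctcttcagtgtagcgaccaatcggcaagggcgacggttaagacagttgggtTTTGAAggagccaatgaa
Kif11: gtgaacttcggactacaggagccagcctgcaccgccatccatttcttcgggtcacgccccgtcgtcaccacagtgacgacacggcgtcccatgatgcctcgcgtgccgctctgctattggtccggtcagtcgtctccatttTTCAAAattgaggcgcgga
Cdk1: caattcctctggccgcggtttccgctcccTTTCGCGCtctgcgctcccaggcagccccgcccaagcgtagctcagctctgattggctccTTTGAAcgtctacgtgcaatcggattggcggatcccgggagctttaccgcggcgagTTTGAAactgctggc

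The same stretch is shown for 3 replication genes, at chr8:75109349-75109508 (strand +) for Mcm5, chr1:128359706-128359865 (strand -) for Mcm6 and chr11:98907991-98908150 (strand +) for Cdc6. The Cdc6 stretch precedes the RefSeq start but lies inside the gene as placed by GENCODE vM21, which starts at chr11:98907801. Capitals mark E2F matches on either strand, and none of these stretches holds a CHR match.
Mcm5: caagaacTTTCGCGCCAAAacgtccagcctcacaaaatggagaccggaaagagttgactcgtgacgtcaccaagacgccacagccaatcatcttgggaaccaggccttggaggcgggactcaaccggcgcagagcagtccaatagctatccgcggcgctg
Mcm6: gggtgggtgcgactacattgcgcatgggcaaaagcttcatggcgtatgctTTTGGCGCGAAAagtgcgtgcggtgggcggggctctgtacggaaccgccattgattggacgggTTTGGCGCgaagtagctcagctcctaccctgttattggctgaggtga
Cdc6: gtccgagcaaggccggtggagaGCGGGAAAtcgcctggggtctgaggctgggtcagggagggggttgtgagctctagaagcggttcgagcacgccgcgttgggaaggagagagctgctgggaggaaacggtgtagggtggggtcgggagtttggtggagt

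Levels of the sets were summarised per library as the mean of log2(FPKM + 1) over their genes. The groups stand in tables that were normalized separately and BMC and Lin- were made with another library kit, so their order across tables is a description only. The mitotic set was lowest in irradiated bone EC, at 2.52, 2.11 and 1.62 in its 3 libraries, and next in 9Gy1D EC, at 3.51, 2.30 and 2.58. These were followed by LSK (3.99, 4.24 and 3.92) and bone EC (4.44, 4.54 and 4.30), and the remaining groups had means between 4.504 and 5.11. The libraries of both irradiated groups overlapped with each other and with no other group. From bone EC upward, each group overlapped with its neighbour in this order.

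The replication set had the same groups at the bottom, 4.16, 2.995 and 3.30 in 9Gy1D EC and 3.79, 3.49 and 3.45 in irradiated bone EC, and overlapping each other. Bone EC came next at 4.97 ± 0.042 (SD, n = 3), and Lin- had the highest mean at 5.92 ± 0.088, a range that Vav1 DTX EC replicates 1 and 3 and Esm1+ EC replicate 3 reached. LSK held a middle place for replication genes, 5.25 ± 0.19, while its mitotic level was below that of bone EC in all 3 libraries. The 5 regulators were likewise lowest in 9Gy1D EC (1.82 ± 0.53) and irradiated bone EC (1.95 ± 0.30), and had near-equal highest means in Esm1+ EC (4.02 ± 0.32), Vav1 control EC (4.01 ± 0.04) and Lin- (4.003 ± 0.44).

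**Figure D1:**
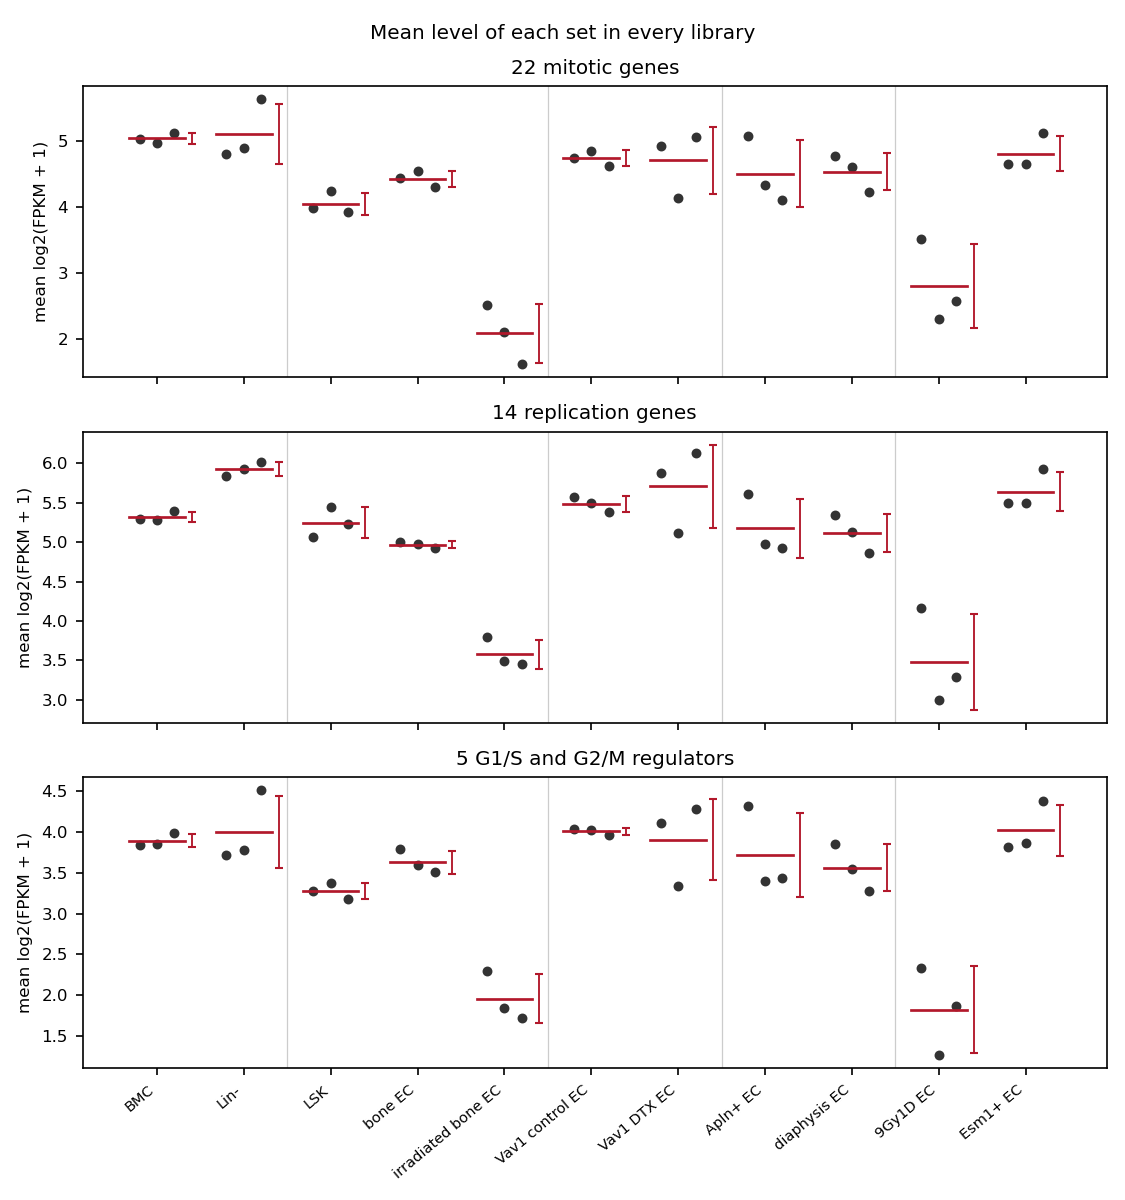
Mean log2(FPKM + 1) of the mitotic genes (top), the replication genes (middle) and the G1/S and G2/M regulators (bottom) in the 3 libraries of each of 11 groups. Points are libraries, red lines means and bars SD, and grey lines part the sets of groups that were compared. Irradiated bone EC and 9Gy1D EC lie below every other group in all 3 panels.

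Irradiated bone EC were compared with bone EC of the same genotype. Nearly the whole set fell: 40 of 44 members were lower in irradiated bone EC and 2 were higher (limma, Benjamini-Hochberg adjusted p below 0.05 over 13044 genes), against 19.4% of all genes called lower, 22.5% called higher and 41.9% called at all. The mitotic genes fell furthest, 21 of 22 with a median log2 difference of -2.56, followed by the 5 regulators (median -1.69) and the 14 replication genes (median -1.33), all of which fell. The median of all genes was 0.059. Of the 3 D-type cyclins, 2 rose. In 43 of the 44 members the groups did not overlap, against 54.2% of all genes. With values as TPM, which gives every library the same total, 4075 genes were higher and 1915 lower, in place of 2938 and 2525, and the members gave 2 higher and 39 lower.

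Markers of dividing cells fell by the widest margins. Mki67, the proliferation antigen Ki-67, stood at 20.1, 20.5 and 14.8 FPKM in bone EC and 3.08, 1.23 and 0.901 in irradiated bone EC, and was 10.6-fold lower (log2 difference -2.90 ± 0.30 (SE), adjusted p = 0.000493). Top2a, the topoisomerase that untangles sister chromatids, stood at 28.2, 28.7 and 24.3 against 4.69, 3.38 and 1.93 (8.11-fold lower, -2.74 ± 0.24 (SE), adjusted p = 0.000330). For both genes every irradiated library lay far below every bone EC library. Nusap1, a spindle microtubule protein, had the most negative log2 difference of the set, at 32.9, 35.4 and 31.2 against 5.43, 2.14 and 1.73 FPKM (-3.17 ± 0.31 (SE), adjusted p = 0.000437), and Ccna2, cyclin A, stood at 58.2, 52.7 and 52.5 against 9.50, 5.04 and 5.03 (-2.93 ± 0.23 (SE), adjusted p = 0.000262).

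The kinase that drives entry into mitosis and its cyclins fell together. Cdk1 stood at 26.2, 31.8 and 26.0 in bone EC and 6.92, 3.97 and 3.46 FPKM in irradiated bone EC (-2.37 ± 0.23 (SE), adjusted p = 0.000434). Ccnb1, cyclin B1, stood at 19.8, 18.4 and 18.8 against 4.499, 1.32 and 1.29 (-2.69 ± 0.34 (SE), adjusted p = 0.000920), and Ccnb2 at 71.8, 86.8 and 66.5 against 14.5, 6.45 and 5.22 (-3.08 ± 0.33 (SE), adjusted p = 0.000560). Irradiated replicate 1 was the highest of the irradiated libraries in all of these genes, and it still lay below the bone EC range. Plk1, a kinase of mitotic entry and spindle assembly, stood at 28.3, 27.9 and 26.9 against 4.42, 3.10 and 2.24 and was 8.51-fold lower (adjusted p = 0.000233). The Aurora kinases Aurka and Aurkb, of the spindle poles and the chromosomal passenger complex, were 5.97-fold and 7.29-fold lower, with Aurkb at 21.9, 22.2 and 24.8 against 4.61, 1.58 and 3.26. Birc5, survivin, the partner of Aurkb in that complex, stood at 29.6, 35.1 and 29.97 against 8.21, 2.191 and 2.21 (-2.83 ± 0.40 (SE), adjusted p = 0.00154).

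Genes of the spindle checkpoint and the anaphase-promoting complex behaved alike, with Ube2c as the exception. Cdc20, the activator of that complex, stood at 34.8, 36.9 and 35.9 in bone EC and 8.51, 3.66 and 4.30 in irradiated bone EC (-2.58 ± 0.26 (SE), adjusted p = 0.000476). The checkpoint kinases Bub1, Bub1b and Ttk were 7.17-fold, 3.70-fold and 5.24-fold lower, and the kinetochore proteins Cenpe and Cenpf 7.14-fold and 5.94-fold lower. The motor Kif11, which pushes spindle poles apart, fell 9.13-fold, Kif23, a motor of cytokinesis, 7.68-fold, and Tpx2, which activates Aurora A on the spindle, 6.07-fold. Kif20a, another cytokinesis motor, had the smallest drop of a called mitotic gene (-1.43 ± 0.17 (SE), adjusted p = 0.000758). Log2 differences on the log2(FPKM + 1) scale understate the change of low genes, among them Ttk, Bub1 and Cenpf, which lay close to 1 FPKM in irradiated bone EC.

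Ube2c, the ubiquitin-conjugating enzyme of the anaphase-promoting complex, was the mitotic gene that did not pass the test (adjusted p = 0.703). It stood at 68.0, 295 and 71.0 FPKM in bone EC and 53.0, 812 and 4.59 in irradiated bone EC, so that replicate 2 was the highest of both groups and irradiated replicate 3 the lowest of all 33 libraries. Ube2c lies at chr2:164769898-164778822 on the plus strand of GRCm38 (GENCODE vM21) and shares 592 exon bases with Tnnc2, troponin C of fast skeletal muscle, on the minus strand at chr2:164777161-164779967. Tnnc2 stood at 0.342, 577 and 0 in bone EC and 119, 2257 and 1.62 in irradiated bone EC, high in the same libraries as Ube2c. Other genes of skeletal muscle, chosen after the values of Ube2c were seen, were likewise highest in replicate 2 of both groups. Among them Acta1, skeletal actin, stood at 0, 798 and 0.385 in bone EC and 128, 2835 and 1.99 in irradiated bone EC. How far reads of Tnnc2 were counted for Ube2c was not tested, and the kit used for these libraries does not mark strand. In the libraries of all other groups Tnnc2 was at most 34.1 FPKM, and Ube2c ranged from 14.7 to 140.1.

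**Figure D2:**
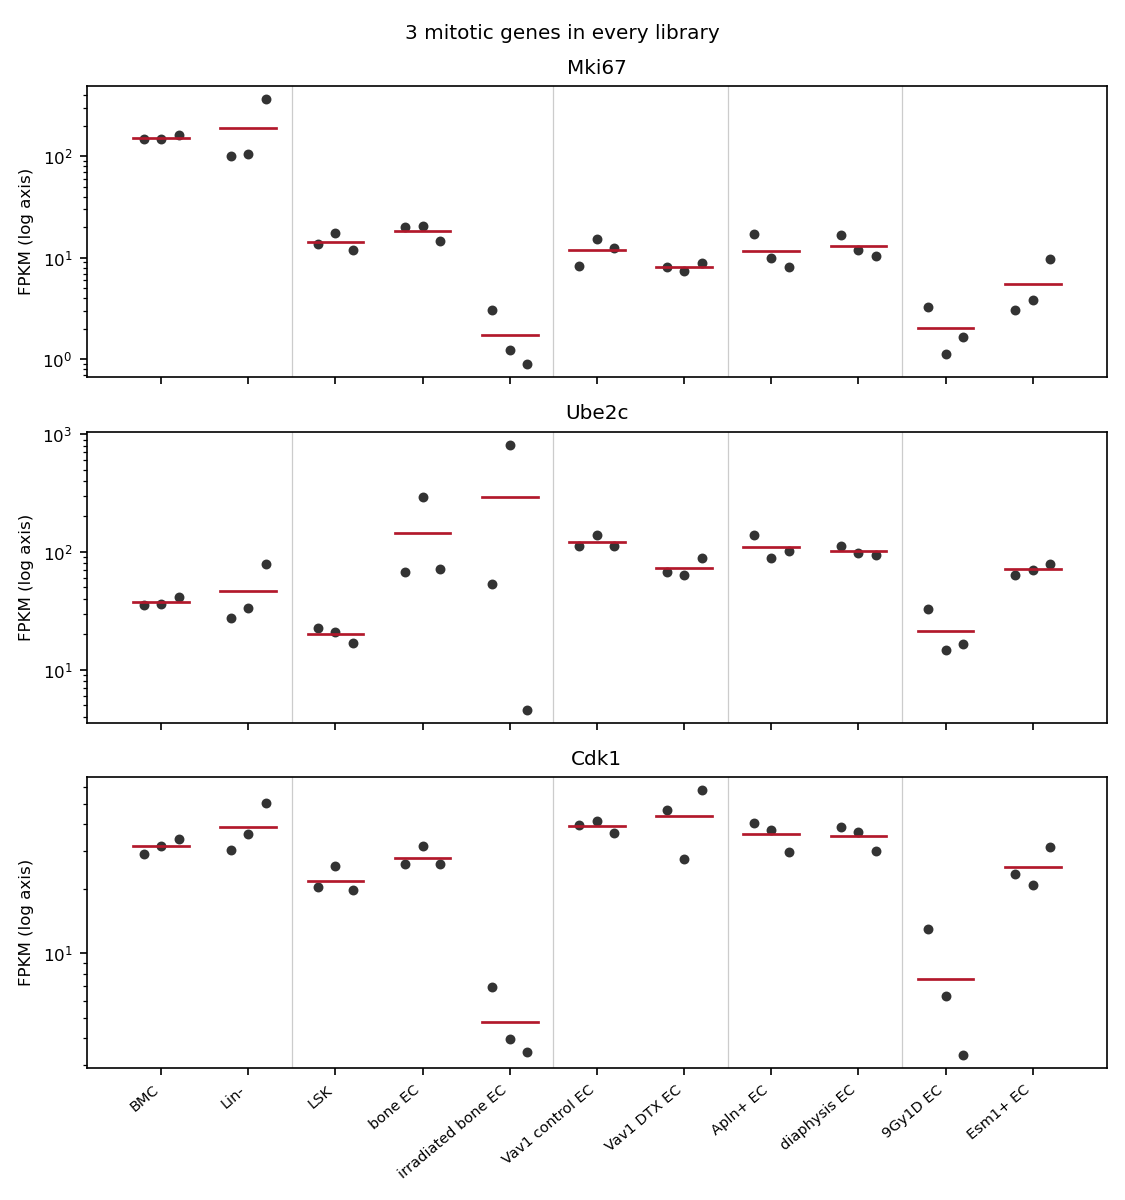
FPKM (log axis) of Mki67, Ube2c and Cdk1 in every library of the 11 groups, with points for libraries and red lines for means. Mki67 and Cdk1 are low in all 3 libraries of irradiated bone EC, whereas Ube2c ranges from 4.59 to 812 FPKM within that group.

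Replication genes fell by differing amounts. Of the MCM helicase, Mcm5 stood at 48.6, 46.4 and 48.6 in bone EC and 15.9, 12.7 and 13.1 in irradiated bone EC (-1.72 ± 0.13 (SE), adjusted p = 0.000247), and Mcm6 at 76.3, 67.6 and 69.4 against 27.1, 30.1 and 24.8 (-1.35 ± 0.13 (SE), adjusted p = 0.000411). Mcm2 stood at 50.05, 35.3 and 36.5 against 17.4, 18.2 and 16.6 (-1.16 ± 0.16 (SE), adjusted p = 0.00150). The irradiated libraries lay within a narrow band below bone EC in each of these subunits. Mcm3, by contrast, was 1.32-fold lower, at 55.8, 51.0 and 51.7 against 39.4, 41.1 and 39.5 (-0.39 ± 0.11 (SE), adjusted p = 0.0299). It was the member with the smallest called difference, and the call was lost under TPM (log2 difference -0.14) and in 5 of 6 cases in which a single library was left out (-0.41 to -0.35). Mcm4 and Mcm7 fell 1.97-fold and 3.004-fold, and Pcna, the sliding clamp, stood at 43.2, 52.7 and 43.2 against 24.6, 14.6 and 16.4 (2.50-fold lower, adjusted p = 0.00247).

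Factors that load and fire the helicase fell as well. Cdc6, a loader of MCM, stood at 8.26, 8.63 and 8.12 in bone EC and 2.11, 1.90 and 1.79 in irradiated bone EC (-1.67 ± 0.13 (SE), adjusted p = 0.000275). Cdt1, its loading partner, was 3.88-fold lower and Cdc45, part of the active helicase, 4.88-fold lower, while Gins2 of the GINS complex was 2.18-fold lower. Among enzymes that supply nucleotides, Rrm2, the regulated subunit of ribonucleotide reductase, stood at 102, 109.5 and 102 against 26.5, 11.7 and 9.08 and was 6.64-fold lower (-2.79 ± 0.35 (SE), adjusted p = 0.000903). It was the replication gene that fell most, whereas its partner subunit Rrm1 was 1.94-fold lower. Tyms, thymidylate synthase, stood at 8.66, 11.9 and 11.1 against 6.40, 4.08 and 5.45 (-0.88 ± 0.19 (SE), adjusted p = 0.00997).

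All 5 regulators were lower in irradiated bone EC. Ccne1, cyclin E1 of the G1/S step, stood at 12.2, 12.8 and 7.25 in bone EC and 5.20, 0.817 and 2.05 in irradiated bone EC (-1.82 ± 0.44 (SE), adjusted p = 0.0145). Its call was lost when bone EC replicate 1 or 2 was left out. Ccne2, cyclin E2, stood at 13.8, 10.3 and 10.6 against 2.49, 3.91 and 2.67 (-1.65 ± 0.19 (SE), adjusted p = 0.000719), and E2f1, an activator of S phase genes, at 9.79, 10.2 and 9.61 against 5.37, 4.04 and 2.63 (-1.15 ± 0.21 (SE), adjusted p = 0.00490). These groups lay apart without overlap. Uhrf1, which maintains DNA methylation behind the fork, stood at 30.2, 24.9 and 27.7 against 8.07, 6.05 and 3.72 (-2.09 ± 0.24 (SE), adjusted p = 0.000701), and Foxm1, a transcription factor of mitotic genes, at 6.61, 4.76 and 5.66 against 1.26, 0.904 and 1.04 (-1.69 ± 0.17 (SE), adjusted p = 0.000440).

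Other genes of these pathways moved with the members. Of 20 further replication genes, 17 were lower and none higher in irradiated bone EC, and of 21 further mitosis genes 20 were lower and none higher. Among CDKs, E2F factors and checkpoint genes, 14 of 21 were lower and none higher, with E2f2, an activator E2F, at 35.0, 36.2 and 34.0 against 4.25, 1.97 and 1.70 (-3.37 ± 0.25 (SE), adjusted p = 0.000246), Cks2, a CDK accessory subunit, at 118 ± 17.6 against 11.3 ± 4.01 (SD, n = 3, adjusted p = 0.000255) and Fbxo5, an inhibitor of the anaphase-promoting complex, at 27.7 ± 5.42 against 3.33 ± 1.23 (adjusted p = 0.000288). The CDK inhibitors split, 3 higher and 4 lower of 9 tested with pocket proteins included. Cdkn1a, the p53 target p21, stood at 75.2, 83.4 and 50.8 in bone EC and 481, 349 and 404 in irradiated bone EC (2.56 ± 0.22 (SE), adjusted p = 0.000306), while Cdkn2c and Cdkn2d, inhibitors of CDK4 and CDK6, were lower, Cdkn2d at 80.8 ± 7.004 against 15.4 ± 5.43 (adjusted p = 0.000422). Rb1, the retinoblastoma pocket protein, was higher at 43.5 ± 6.32 against 24.0 ± 2.06 (adjusted p = 0.00476).

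Blood cell markers moved beside all of these sets. Summed over 5 genes of early neutrophils, which divide in marrow, the level was 880.1, 968 and 1105 FPKM in bone EC and 11.3, 18.5 and 1.86 in irradiated bone EC, with all 5 genes called lower. Of these, Ms4a3 was listed at 0 in 1 irradiated library. The 6 B precursor markers, all called lower, summed to 105 to 166 in bone EC and 3.08 to 11.5 in irradiated bone EC, where Rag1 was at 0 in 2 libraries. The 7 erythroblast markers summed to 333 to 404 and 83.2 to 100.2, with 6 lower and Epor higher, and the 5 pan-leukocyte markers, all lower, to 1102 to 1262 and 230.1 to 406. Pan-endothelial markers summed to 1706 to 2220 and 4991 to 6740, with 12 of 14 called higher. The part of these shifts in the lower levels of cell cycle genes was not tested. Bone EC also serve in the comparison with LSK, so both comparisons share these 3 libraries.

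**Figure D3:**
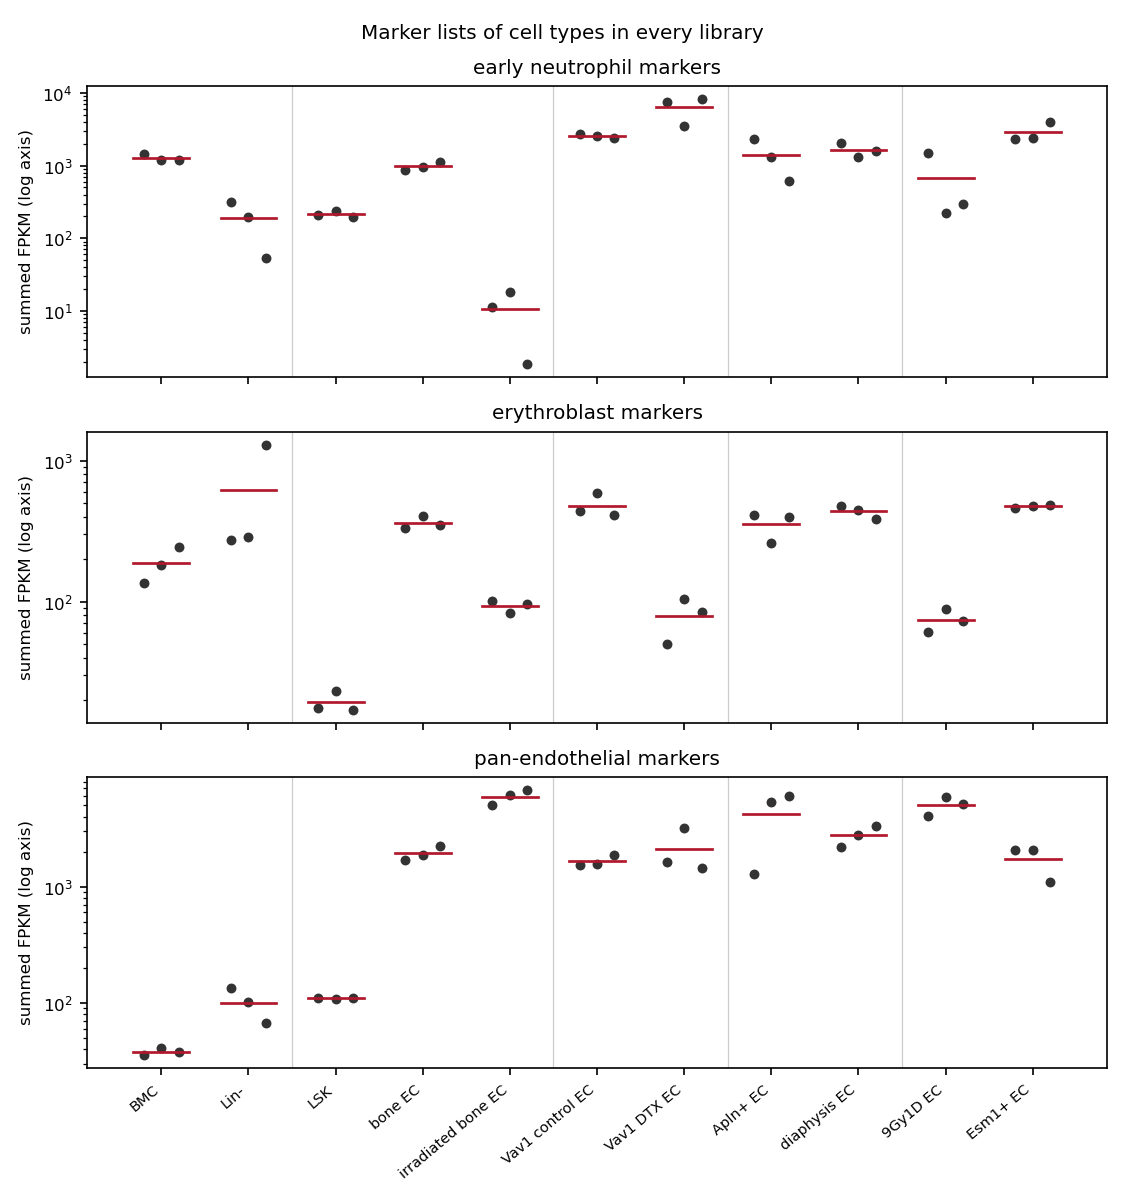
Summed FPKM (log axis) of the early neutrophil, erythroblast and pan-endothelial markers in each library of the 11 groups, with points for libraries and red lines for means. Irradiated bone EC hold 1.86 to 18.5 FPKM of early neutrophil markers against 880.1 to 1105 in bone EC.

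The other irradiated group, 9Gy1D EC, stood in a table with Esm1+ EC. It differs from them in irradiation and also in genotype, tamoxifen and the cells the reporter marks, so these factors cannot be told apart. A gene that fell or rose here was lower or higher in 9Gy1D EC than in Esm1+ EC. Again most of the set was lower in the irradiated group: 39 of 44 members fell and 1 rose, against 23.1% of 11746 genes called lower and 20.6% called higher by limma. In 42 members the groups did not overlap, against 57.3% of all genes. All 14 replication genes fell with a median log2 difference of -1.93, as did 19 of 22 mitotic genes (median -2.01) and all 5 regulators (median -2.07), beside a median of 0.0014 for all genes. Here the replication and mitotic sets had near-equal medians. Gins2 and Bub1 each lost their call with no filter and without 9Gy1D EC replicate 2, 9Gy1D EC replicate 3 or Esm1+ EC replicate 3. Gins2 also lost it without Esm1+ EC replicate 1, and Bub1 without Esm1+ EC replicate 2. Under TPM the split of all genes was 3450 higher and 1939 lower, in place of 2422 and 2711, and the members gave 2 higher and 39 lower. Esm1+ EC replicates 1 and 2 differed least of all replicate pairs, though by more than counting noise, and with both averaged 38 members fell and 1 rose, against 14.7% of all genes called lower and 15.9% called higher in that fit.

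Ccna2, cyclin A, and Ccne1, cyclin E1, had the most negative log2 differences of the set. Ccna2 stood at 49.9, 49.7 and 66.4 FPKM in Esm1+ EC and 6.27, 2.71 and 3.98 in 9Gy1D EC (12.8-fold lower, -3.45 ± 0.26 (SE), adjusted p = 0.000149), and Ccne1 at 21.3, 19.2 and 25.0 against 2.26, 1.21 and 1.59 (13.0-fold lower, -3.10 ± 0.20 (SE), adjusted p = 7.95e-05). The libraries of both groups were far apart in both cyclins. Ccne2, cyclin E2, had the smallest drop of the 5 regulators, at 10.1, 11.2 and 12.5 against 5.55, 2.67 and 5.20 (2.51-fold lower, -1.20 ± 0.25 (SE), adjusted p = 0.00705). Mcm2 was the replication gene that fell most, at 109.8, 109 and 133 against 24.5, 10.6 and 8.24 (-3.07 ± 0.35 (SE), adjusted p = 0.000720), and Plk1 stood at 101, 96.3 and 107 against 21.2, 6.61 and 10.02 (-3.06 ± 0.35 (SE), adjusted p = 0.000748). Cdc6 followed at 15.3, 17.1 and 21.4 against 2.86, 0.557 and 1.46 (-2.94 ± 0.33 (SE), adjusted p = 0.000656). In Mcm2, Plk1 and Cdc6 alike, 9Gy1D EC replicate 1 was the highest of its group.

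Of the MCM subunits Mcm3 stood at 110.1, 115 and 160 against 42.5, 28.3 and 27.9 (-1.94 ± 0.22 (SE), adjusted p = 0.000647), Mcm5 at 94.1, 90.3 and 130.4 against 34.9, 8.37 and 12.2 (-2.67 ± 0.46 (SE), adjusted p = 0.00348) and Mcm6 at 106, 109 and 153 against 56.5, 19.3 and 27.5 (-1.92 ± 0.37 (SE), adjusted p = 0.00521). Pcna had the smallest difference of the replication set, at 32.03, 36.1 and 44.5 against 18.8, 14.8 and 17.1 (-1.10 ± 0.16 (SE), adjusted p = 0.00181). None of these groups overlapped. Rrm2 stood at 179, 178 and 209 against 50.9, 13.5 and 24.5 (-2.82 ± 0.41 (SE), adjusted p = 0.00179) and Tyms at 12.9, 12.6 and 18.3 against 4.80, 3.32 and 3.73 (-1.65 ± 0.20 (SE), adjusted p = 0.000913). Uhrf1, E2f1 and Foxm1 were 7.08-fold, 4.97-fold and 6.12-fold lower.

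In the mitotic set, Top2a stood at 21.6, 20.9 and 33.5 against 7.11, 3.08 and 4.18 (-2.21 ± 0.29 (SE), adjusted p = 0.00123), Cdk1 at 23.6, 20.9 and 31.4 against 13.0, 6.32 and 3.35 (-1.76 ± 0.40 (SE), adjusted p = 0.0109) and Cdc20 at 105, 106 and 125 against 46.5, 19.3 and 21.0 (-2.02 ± 0.31 (SE), adjusted p = 0.00225). Ube2c, which was not called after irradiation of bone EC, stood at 63.9, 69.8 and 79.6 against 32.7, 14.7 and 16.4 here (-1.78 ± 0.28 (SE), adjusted p = 0.00258). The 9Gy1D EC libraries lay below the Esm1+ EC range in each of these. Mki67, Cenpe and Cenpf were the mitotic genes that missed the threshold. Mki67 stood at 3.05, 3.83 and 9.71 in Esm1+ EC and 3.29, 1.13 and 1.68 in 9Gy1D EC (adjusted p = 0.0816), so that Esm1+ EC replicate 1 lay below 9Gy1D EC replicate 1. Cenpe and Cenpf had adjusted p-values of 0.117 and 0.0542.

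Further genes of the pathways moved alike, with 17 of 20 further replication genes, 18 of 20 further mitosis genes and 15 of 19 CDK, E2F and checkpoint genes lower in 9Gy1D EC and none of them higher. Ccnf, cyclin F, a ubiquitin ligase subunit, stood at 61.7 ± 5.29 in Esm1+ EC and 5.44 ± 2.42 in 9Gy1D EC (-3.35 ± 0.26 (SE), adjusted p = 0.000161). Cdkn1a stood at 64.9, 64.5 and 49.2 against 477, 529 and 525 and was 8.57-fold higher in 9Gy1D EC (3.09 ± 0.15 (SE), adjusted p = 2.27e-05). Marker lists moved beside these genes too, with early neutrophil markers at 2341, 2381 and 4046 in Esm1+ EC and 1477, 224 and 299.8 in 9Gy1D EC. The erythroblast markers, 6 lower and 1 higher, summed to 463 to 483 in Esm1+ EC and 60.6 to 88.0 in 9Gy1D EC, and the pan-endothelial markers, 12 of 14 higher, to 1087 to 2078 and 4031 to 5907. In 9Gy1D EC, replicate 1 held the highest early neutrophil sum and the highest value of 43 of 44 members, and the part of the markers in the result was not tested.

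Bone EC were compared with LSK cells of the same table, and here the mitotic and the replication genes differed in their direction relative to other genes. Of 44 members 15 were higher in bone EC and 13 lower, against 29.5% and 30.6% of 14321 genes, so the counts as such lay near the background. By set, 9 of 22 mitotic genes were higher and 3 lower, a split that was 3 and 9 under TPM. Of 14 replication genes 2 were higher and 9 lower, or 1 and 11 under TPM. Of Mcm2 to Mcm7 and Pcna, 6 of 7 were lower and none higher. Genotype differs along with cell type, since LSK came from wildtype mice. The direction of single genes depends on the scaling: under TPM the calls over all genes were 2332 higher and 7904 lower, in place of 4219 and 4389, and the members gave 7 higher and 24 lower. The median of all genes was then -0.71, a shift from -0.052. Relative to the median of all genes on the same scale, the mitotic set lay 0.39 above it on the FPKM scale and 0.37 above it on the TPM scale, and the replication set at -0.46 and -0.51.

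Mcm6 had the lowest value of the replication set relative to LSK, at 146, 199.6 and 148 FPKM in LSK and 76.3, 67.6 and 69.4 in bone EC (-1.19 ± 0.15 (SE), adjusted p = 0.000277). Mcm4 stood at 43.4, 64.7 and 52.6 against 33.1, 21.96 and 29.0 (-0.91 ± 0.19 (SE), adjusted p = 0.00394), Mcm3 at 80.4, 107 and 86.5 against 55.8, 51.0 and 51.7 (-0.77 ± 0.13 (SE), adjusted p = 0.00150) and Mcm5 at 65.1, 80.7 and 59.8 against 48.6, 46.4 and 48.6 (-0.50 ± 0.13 (SE), adjusted p = 0.0126). In these 4 subunits bone EC lay below LSK without overlap, whereas Mcm2, also called lower, overlapped at 49.8, 71.9 and 57.6 against 50.05, 35.3 and 36.5 (adjusted p = 0.0314). Leaving out a single library ended the call of Mcm2 in 4 of 6 cases, of Mcm5 in 1, of Cdc45 in 5 and of Gins2 in 3. Pcna was not called, at 46.2, 64.1 and 67.3 against 43.2, 52.7 and 43.2 (adjusted p = 0.119). It was called lower under TPM (-1.04, adjusted p = 0.00071) and under voom (-0.72, adjusted p = 0.0016). Rrm2 ran against its set: it stood at 25.4, 29.99 and 21.4 in LSK and 102, 109.5 and 102 in bone EC, 4.08-fold higher (2.0 ± 0.14 (SE), adjusted p = 1.17e-05). Cdt1 was also higher (0.51 ± 0.19 (SE), adjusted p = 0.0450), a difference that turned to -0.16 under TPM. The call of Cdt1 was also lost in 5 of 6 cases in which a single library was left out (adjusted p from 0.054 to 0.14), with a pseudocount of 0.1, with no filter and under voom on recovered reads. Of 20 further replication genes 16 were lower in bone EC and none higher, among them Orc1 of the origin recognition complex at 14.6 ± 3.05 in LSK and 3.77 ± 0.624 in bone EC (SD, n = 3, adjusted p = 0.000119).

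In the mitotic set, Plk1 stood at 7.93, 10.2 and 5.42 in LSK and 28.3, 27.9 and 26.9 in bone EC (3.53-fold higher, 1.74 ± 0.20 (SE), adjusted p = 0.000158), and Aurka at 6.73, 12.6 and 9.28 against 21.6, 24.3 and 23.2 (1.23 ± 0.20 (SE), adjusted p = 0.00105). Ccnb1 stood at 8.70, 12.8 and 10.8 against 19.8, 18.4 and 18.8 (0.77 ± 0.15 (SE), adjusted p = 0.00278). All bone EC libraries were above all LSK libraries in these genes, and under TPM the log2 differences were 1.13 (adjusted p = 0.0035), 0.60 (adjusted p = 0.042) and 0.12 (adjusted p = 0.55). Ube2c showed the widest difference, 22.7, 20.7 and 16.9 against 68.0, 295 and 71.0 (2.44 ± 0.51 (SE), adjusted p = 0.00359), which was 1.75 without bone EC replicate 2, the library with muscle transcripts. The checkpoint kinases Bub1, Bub1b and Ttk went down instead, with Bub1b at 21.0, 23.9 and 17.3 in LSK and 15.3, 14.5 and 11.7 in bone EC (-0.55 ± 0.16 (SE), adjusted p = 0.0174). Mki67 was not called, at 13.5, 17.4 and 12.0 against 20.1, 20.5 and 14.8 (adjusted p = 0.129), nor were Cdk1 (adjusted p = 0.0674) and Top2a (adjusted p = 0.0722). Top2a was called lower under TPM (-1.02, adjusted p = 0.00062) and under voom (-0.70, adjusted p = 0.00067). Leaving out a single library ended the call of Bub1b in 3 of 6 cases and of Ttk in 5. Of 21 further mitosis genes, 2 were higher and 2 lower.

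Ccne1 stood at 2.13, 2.31 and 1.86 in LSK and 12.2, 12.8 and 7.25 in bone EC (5.12-fold higher, 1.89 ± 0.22 (SE), adjusted p = 0.000177), and Ccne2 was higher by 0.63 ± 0.15 (SE), a difference that was -0.0043 under TPM. E2f1, Uhrf1 and Foxm1 did not pass the test on the FPKM scale. Under TPM they were called lower in bone EC, at -0.97 (adjusted p = 0.0023), -1.01 (adjusted p = 0.00052) and -0.84 (adjusted p = 0.0065), and likewise under voom. E2f2 stood at 3.94, 3.40 and 3.80 against 35.0, 36.2 and 34.0 (2.94 ± 0.12 (SE), adjusted p = 6.70e-07), Cdk6, a partner kinase of D-type cyclins, at 39.4, 38.5 and 32.6 against 6.88, 8.05 and 6.86 (-2.194 ± 0.13 (SE), adjusted p = 4.89e-06), and Cdkn1c, the inhibitor p57, at 5.98 ± 2.40 against 47.9 ± 10.7 (2.84 ± 0.25 (SE), adjusted p = 4.22e-05). Cdkn1a was lower in bone EC, at 240.4, 246 and 289 in LSK and 75.2, 83.4 and 50.8 in bone EC (-1.90 ± 0.19 (SE), adjusted p = 9.16e-05). Erythroblast markers summed to 17.1 to 23.1 in LSK and 333 to 404 in bone EC, and early neutrophil markers to 194 to 235 and 880.1 to 1105. Their part in these differences was not tested.

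Lin- cells were compared with BMC, both from wildtype mice and from a stranded total RNA kit. Replication genes rose while mitotic genes mostly did not pass the test: 10 of 14 replication genes were higher and none lower (median log2 difference 0.72), and of 22 mitotic genes 1 was higher and 1 lower (median 0.13), or 6 and 1 under TPM. Over all 44 members 13 were higher and 3 lower, against 29.1% and 28.4% of 12428 genes and 57.5% in either direction, with a median of 0.028 for all genes. Under TPM the split of all genes was 4126 higher and 2738 lower, in place of 3615 and 3529. The members then gave 19 higher and 2 lower. Lin- replicate 3 stood apart from the others. Without it, 15 members were higher and 10 lower, against 29.7% and 36.4% of all genes in that fit, with 6 mitotic genes lower and 2 higher, and 11 replication genes higher and 1 lower. The median log2 difference was then -0.16 for mitotic and 0.66 for replication genes.

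Mcm2 stood at 48.1, 47.1 and 50.2 FPKM in BMC and 97.6, 111 and 94.5 in Lin- (2.08-fold higher, 1.04 ± 0.12 (SE), adjusted p = 0.000387), Mcm6 at 95.7, 98.1 and 104 against 205, 196 and 189.5 (0.98 ± 0.11 (SE), adjusted p = 0.000437) and Mcm3 at 67.1, 61.8 and 64.2 against 117, 127 and 108 (0.85 ± 0.12 (SE), adjusted p = 0.000984). Every Lin- library was above every BMC library in these genes, replicate 3 included. Mcm5 stood at 73.4, 71.9 and 79.8 against 137, 138 and 105 (0.74 ± 0.15 (SE), adjusted p = 0.005005), Cdc6 at 10.7, 11.2 and 12.2 against 17.8, 19.2 and 27.0 (0.83 ± 0.18 (SE), adjusted p = 0.00632) and Tyms at 8.32, 9.11 and 8.498 against 13.4, 12.4 and 17.8 (0.67 ± 0.16 (SE), adjusted p = 0.00962). Pcna missed the threshold at 109.8, 108 and 123 against 134, 136 and 162 (adjusted p = 0.0670), although the groups did not overlap. Rrm2 was not called either, at 75.4, 74.3 and 85.0 against 35.7, 37.4 and 135, with Lin- replicates 1 and 2 below and replicate 3 above the BMC range. Without replicate 3 it was lower in Lin-, by a log2 difference of -1.08 (adjusted p = 0.00023). Of 20 further replication genes 16 were higher and none lower (17 higher without replicate 3), including Mcm10, a factor of helicase firing, at 6.05, 6.13 and 6.43 against 11.8, 11.7 and 13.5 (0.88 ± 0.12 (SE), adjusted p = 0.000839).

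Ccne1 stood at 9.00, 7.79 and 10.9 in BMC and 20.1, 19.3 and 33.6 in Lin- (2.63-fold higher, 1.27 ± 0.24 (SE), adjusted p = 0.00377) and was the member with the largest positive difference. Cdc20 was the mitotic gene called higher (47.6, 41.8 and 46.3 against 60.1, 69.1 and 52.9, 0.41 ± 0.14 (SE), adjusted p = 0.0402) and Kif23 the one called lower (31.2, 27.9 and 28.9 against 10.7, 11.2 and 24.8, -0.97 ± 0.31 (SE), adjusted p = 0.0313), and Foxm1 was lower at 13.4, 11.4 and 11.3 against 5.89, 6.25 and 10.6 (-0.64 ± 0.22 (SE), adjusted p = 0.0413). Cdc20, Kif23 and Foxm1 each lost their call when any BMC library, or Lin- replicate 1 or 2, was left out. Foxm1 also lost it under TPM (-0.46) and with no filter, Kif23 with no filter and Cdc20 under median-of-ratios scaling. Mki67 stood at 148, 148 and 161 in BMC and 100.1, 105 and 363 in Lin-, so that Lin- replicates 1 and 2 were below BMC and replicate 3 far above it. Without replicate 3 the log2 difference of Mki67 was -0.56 (adjusted p = 0.0026), in place of 0.043.

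Lin- replicate 3 differed in markers as well. Its erythroblast sum was 1294 FPKM, against 275 and 288 in the other Lin- libraries and 136 to 244 in BMC. E2f2 stood at 4.53, 7.28 and 105 in Lin-, high in the same library. Early neutrophil markers summed to 1461, 1183 and 1211 in BMC and 319.6, 197 and 52.9 in Lin-, with all 5 lower in Lin-. The 5 stromal and bone markers, all higher in Lin-, summed to 10.3, 1.94 and 13.0 in BMC and 1895, 2805 and 920.2 in Lin-, lowest of its group in replicate 3. The part of these cell types in the levels of mitotic and replication genes was not tested.

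Vav1 DTX EC were compared with Vav1 control EC, groups that share genotype and toxin in their labels. Few members passed the test: 1 of 44 was higher and 2 were lower, against 11.3% and 15% of 11664 genes by limma. Gins2 was higher at 9.19, 8.34 and 13.8 in Vav1 DTX EC against 5.91, 6.24 and 6.37 in Vav1 control EC (0.65 ± 0.19 (SE), adjusted p = 0.0468), a call that was lost when any library other than Vav1 DTX EC replicate 2 was left out. Ube2c was lower at 68.0, 64.0 and 88.2 against 113, 140.1 and 111 (-0.73 ± 0.16 (SE), adjusted p = 0.0182), and this call too was lost without Vav1 DTX EC replicate 1 or without any control library. Control replicate 2, where Ube2c was highest, also held muscle transcripts. There Tnnc2 stood at 14.5, against 0 and 0.494 in the other controls, and Acta1 at 83.6. Their part in the Ube2c level was not tested. Neither Gins2 nor Ube2c overlapped between the groups. Ccnd1 was the other gene called lower.

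Vav1 DTX EC replicate 2 lay below both other libraries of its group in 44 of 44 members. Plk1 stood at 86.5, 42.3 and 92.0 in Vav1 DTX EC and 46.9, 47.7 and 41.8 in the control, and Mcm6 at 171, 74.5 and 194 against 125, 118 and 111. Kif20a stood at 32.2, 11.6 and 36.4 against 18.1, 15.5 and 14.7. In Plk1 and Mcm6, replicates 1 and 3 exceeded all control libraries while replicate 2 did not. Without replicate 2, 23 of 44 members were higher and 3 lower, with 12 of 14 replication genes and 10 of 22 mitotic genes higher. In that fit of 2 against 3 libraries 20.7% of all genes were called higher and 20.9% lower. The log2 difference was then 0.96 (adjusted p = 0.00045) for Plk1, 0.62 (adjusted p = 0.0025) for Mcm6 and 1.05 (adjusted p = 0.00079) for Kif20a. Mcm2, for which the log2 difference was -0.02 with all libraries, gave 0.40 (adjusted p = 0.044) without it. Cdkn1a stood at 208, 951 and 249 in Vav1 DTX EC and 126, 132 and 177 in the control, highest in that same library.

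Mki67 and Top2a had lower means in Vav1 DTX EC although many members did not. Mki67 stood at 8.03, 7.40 and 8.91 against 8.32, 15.2 and 12.5 (adjusted p = 0.143) and Top2a at 17.7, 11.9 and 19.9 against 23.3, 27.6 and 25.8 (adjusted p = 0.0527), the latter without overlap. Without Vav1 DTX EC replicate 2 Top2a was called lower, at -0.42 (adjusted p = 0.024). Nusap1 did not overlap either, at 33.8, 20.2 and 38.2 against 45.3, 53.9 and 42.2 (adjusted p = 0.0917). None of the further replication and mitosis genes was called, whereas in the fit without replicate 2, 9 of 20 further replication genes were higher, and 4 of 21 further mitosis genes were higher and 1 lower. E2f2 was lower at 12.9, 6.33 and 12.1 against 36.6, 44.7 and 34.5 (-1.84 ± 0.26 (SE), adjusted p = 0.00280), as was Cdc25b, a phosphatase that activates CDK1, at 9.04 ± 2.05 against 33.2 ± 6.16 (SD, n = 3, adjusted p = 0.00120). Early neutrophil markers summed to 7568, 3458 and 8195 in Vav1 DTX EC and 2750, 2576 and 2428 in the control, lowest of its group in replicate 2. Mature neutrophil markers went the other way, at 65150, 32770 and 77270 against 91310, 92490 and 83100, with 1 of 6 called lower. The pan-leukocyte markers, 3 of 5 called lower, summed to 639.2 to 1283 against 1930 to 2153. Erythroblast markers summed to 50.2 to 105 against 409.9 to 587 and pan-endothelial markers to 1646, 3217 and 1441 against 1528, 1571 and 1878. The part of these shifts was not tested. Under TPM the split of all genes was 2880 higher and 1313 lower, in place of 1317 and 1748, and the members gave 2 higher and 2 lower.

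Apln+ EC and diaphysis EC differ in genotype, tamoxifen, bone and the cells the reporter marks. They showed no member past the threshold of limma in either direction, against 2.84% of 11889 genes called higher, 4.64% called lower and 7.49% in either direction. In 2 members, against 27.8% of all genes, the groups did not overlap. Ccnd2 and Tyms, 2 members, had an unadjusted p below 0.05, and limma voom on recovered reads called 0 members. The median log2 difference of the members was 0.04, beside 0.042 for all genes. Of the 44 members, 40 were highest in Apln+ EC replicate 1 among the libraries of that group. Mki67 stood at 17.2, 9.90 and 8.08 in Apln+ EC and 16.7, 11.9 and 10.4 in diaphysis EC, and Aurkb at 45.8, 25.1 and 19.3 against 35.5, 30.2 and 26.8. Tyms stood at 19.7, 20.8 and 20.8 against 16.3, 13.3 and 14.1, without overlap (adjusted p = 0.112). That library had a pan-leukocyte sum of 2370 FPKM, against 946 and 783 in the other Apln+ EC libraries, and a pan-endothelial sum of 1291 against 5338 and 6005. Without it, 3 members were lower (Ccnb1, Aurka and Bub1b) and 3 higher (Tyms, Ccnd1 and Ccnd2), against 17% of all genes called lower and 16.3% called higher in that fit, so the members' counts lay below the background. The log2 difference was then 0.49 (adjusted p = 0.023) for Tyms, -0.65 (adjusted p = 0.017) for Aurka and -0.94 (adjusted p = 0.0091) for Bub1b, and the median of the members was -0.22. Of the further pathway genes Cdkn2b, the inhibitor p15, was the one called, at 4.74, 16.8 and 13.6 in Apln+ EC and 0.520, 0.629 and 0.868 in diaphysis EC (2.78 ± 0.42 (SE), adjusted p = 0.0137). Without Apln+ EC replicate 1 Cdkn2b did not pass the filter on low values. In that fit 1 of 20 CDK, E2F and checkpoint genes was higher and 4 were lower. Of 8 CDK inhibitors and pocket proteins 2 were lower, and of 19 further replication genes 1 was lower. Of 21 further mitosis genes 1 was higher and 1 lower. Under TPM the split of all genes was 258 higher and 673 lower, in place of 338 and 552, and under voom 242 and 664.

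**Figure D4:**
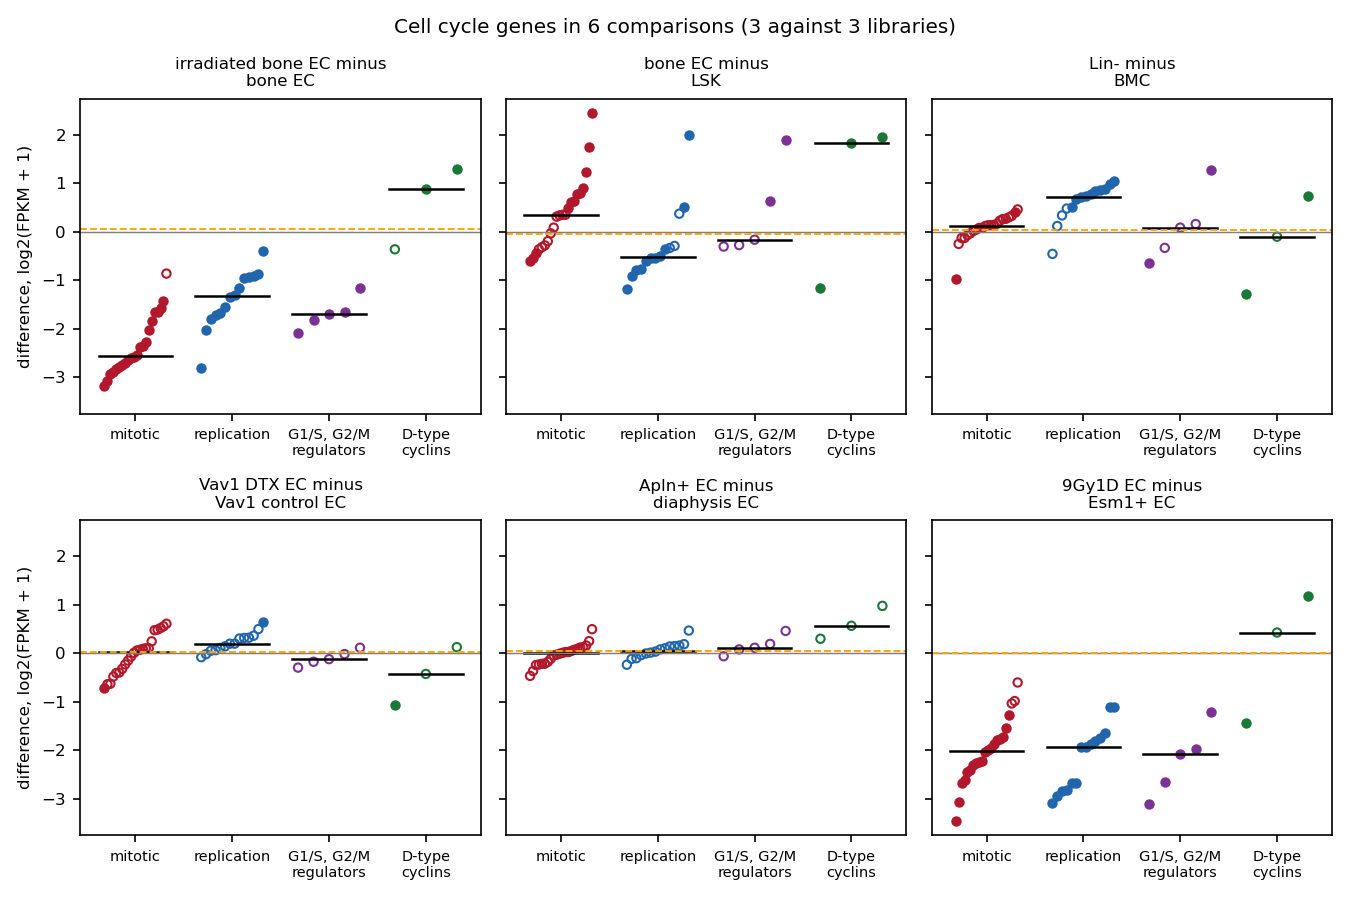
Log2 differences of the 44 genes by set in 6 comparisons of 3 against 3 libraries, on the log2(FPKM + 1) scale. Filled points passed the adjusted threshold, open points did not, black lines are set medians and the dashed line is the median of all genes tested. The mitotic median is -2.56 and the replication median -1.33 in irradiated bone EC, against -2.01 and -1.93 in 9Gy1D EC.

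Scaling to TPM moved the median of all genes to 0.30 for irradiated bone EC, 0.23 for 9Gy1D EC, 0.23 for Lin- and 0.26 for Vav1 DTX EC. Set against that median, the mitotic and replication medians under TPM were -2.82 and -1.4 in irradiated bone EC, beside -2.62 and -1.39 on the FPKM scale. In 9Gy1D EC they were -2.05 and -1.97, beside -2.01 and -1.93. For Lin- they were 0.12 and 0.73, beside 0.10 and 0.70. The order of both sets thus held within each of these comparisons.

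The D-type cyclins, which link growth signals to CDK4 and CDK6, did not follow the other sets. Ccnd1 (chr7:144929931-144939925) stood at 21.5, 21.6 and 23.9 FPKM in bone EC and 54.7, 40.5 and 33.8 in irradiated bone EC, 1.92-fold higher (0.89 ± 0.19 (SE), adjusted p = 0.00844). It stood at 6.89, 7.63 and 3.19 in Esm1+ EC and 13.3, 11.6 and 17.6 in 9Gy1D EC, 2.40-fold higher (1.183 ± 0.30 (SE), adjusted p = 0.0166), a call that was lost without 9Gy1D EC replicate 3. In both comparisons the irradiated libraries were above the other group without overlap. In Vav1 DTX EC it stood at 3.18, 2.64 and 2.75 against 6.43, 7.59 and 7.27 in the control, 2.48-fold lower (-1.07 ± 0.14 (SE), adjusted p = 0.00187). LSK held 5.58, 5.28 and 6.01, so that bone EC were 3.97-fold higher (1.82 ± 0.12 (SE), adjusted p = 9.53e-06). In Apln+ EC it stood at 7.12, 22.5 and 19.7, lowest in replicate 1, and in diaphysis EC at 10.6, 7.22 and 11.8, with a log2 difference of 1.05 (adjusted p = 0.0067) without that replicate.

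Ccnd2 (chr6:127125162-127152193) stood at 19.0, 23.1 and 21.1 in bone EC and 61.6, 43.7 and 55.2 in irradiated bone EC, 2.54-fold higher (1.296 ± 0.16 (SE), adjusted p = 0.000976). In 9Gy1D EC it stood at 31.1, 26.3 and 24.2 against 21.0, 22.4 and 16.7 in Esm1+ EC, where it missed the threshold (adjusted p = 0.0660) but passed it under TPM and under voom on recovered reads. Against LSK (46.0, 42.1 and 58.4) bone EC were lower (-1.17 ± 0.15 (SE), adjusted p = 0.000303), which is the opposite order to Ccnd1. Lin- were higher than BMC, at 16.8, 15.0 and 24.2 against 11.1, 10.8 and 9.95 (0.73 ± 0.19 (SE), adjusted p = 0.0143), a call that was lost without BMC replicate 3. Apln+ EC stood at 19.1, 49.4 and 45.7 and diaphysis EC at 17.8, 15.9 and 18.7, without overlap and not called (adjusted p = 0.187), and without Apln+ EC replicate 1 the log2 difference was 1.398 (adjusted p = 0.00021).

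Ccnd3 (chr17:47505051-47599691) fell in 9Gy1D EC. It stood at 147, 150.3 and 146 in Esm1+ EC and 61.8, 52.2 and 49.5 in 9Gy1D EC, 2.71-fold lower (-1.43 ± 0.12 (SE), adjusted p = 0.000235). Bone EC held 66.1, 57.0 and 64.6 and irradiated bone EC 48.5, 45.5 and 51.2, groups that did not overlap, with an adjusted p of 0.0539 that passed the threshold under median-of-ratios scaling and voom. LSK were lower than bone EC at 16.5, 16.3 and 13.8 (1.94 ± 0.12 (SE), adjusted p = 6.81e-06), and Lin- lower than BMC at 12.9, 14.1 and 22.3 against 45.9, 39.3 and 36.2 (-1.28 ± 0.22 (SE), adjusted p = 0.00243). Of the 3 cyclins it was the most abundant in each endothelial group except irradiated bone EC, where Ccnd2 had the higher mean, on the FPKM scale, which is per length. Each D-type cyclin shares exon bases with another gene (LTO1 for Ccnd1, 9330179D12Rik and Gm43126 for Ccnd2, Bysl for Ccnd3), as do 15 of the 44 members in all, so reads of those genes may be counted with theirs. The pan-endothelial sums rose in both irradiated groups, as given with the results on mitotic genes, and their part in the cyclin levels was not tested.

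**Figure D5:**
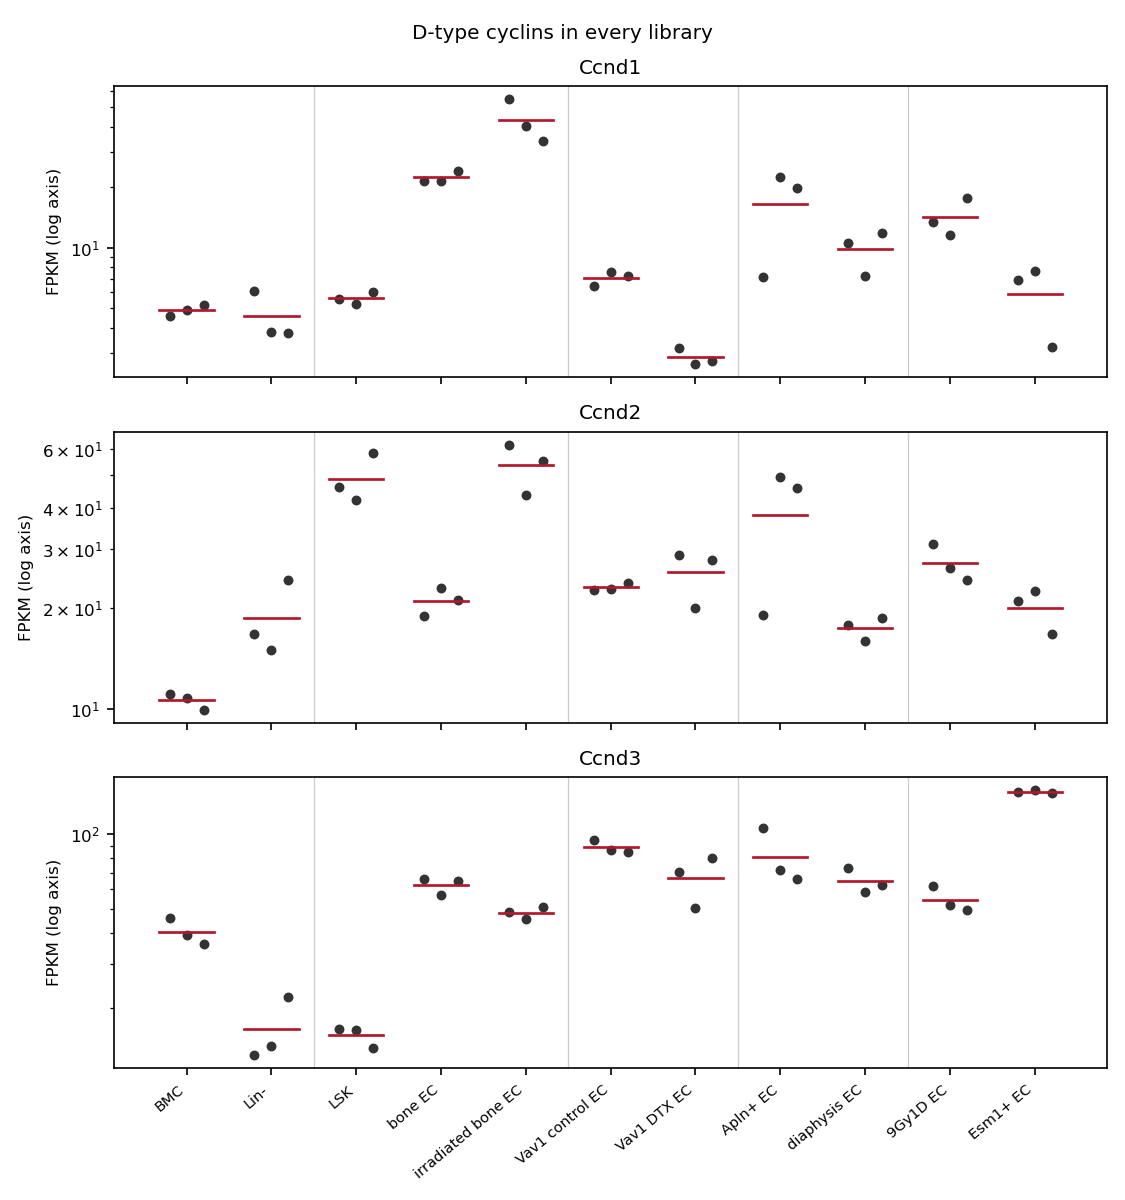
FPKM (log axis) of Ccnd1, Ccnd2 and Ccnd3 in every library of the 11 groups, with points for libraries and red lines for means. Ccnd1 is at 33.8 to 54.7 FPKM in irradiated bone EC against 21.5 to 23.9 in bone EC, while Ccnd3 is at 45.5 to 51.2 against 57.0 to 66.1.

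Replication genes were set against mitotic genes as the log2 ratio of their summed FPKM in each library, with no test. The ratio was 0.85 ± 0.10 (SD, n = 3) in LSK, 0.30 ± 0.46 in Lin- and -0.27 ± 0.032 in BMC. In Lin- the libraries stood at 0.59, 0.55 and -0.23, with replicate 3 near the BMC values of -0.29, -0.23 and -0.28. Endothelial groups without irradiation lay between -0.22 ± 0.33 in bone EC and 0.32 ± 0.069 in Vav1 DTX EC. Bone EC replicate 2, the library with muscle transcripts, stood at -0.60, and Ube2c made up 36.1% of its mitotic sum. Without Ube2c, an alternative added after seeing the data, bone EC stood at 0.13 ± 0.074, diaphysis EC at 0.13 ± 0.019 and LSK at 0.93 ± 0.09. LSK thus had more summed replication RNA per mitotic RNA than bone EC, the unirradiated endothelial group of the same table, with no overlap of libraries. The other unirradiated endothelial groups stand in other tables and BMC and Lin- were made with another kit. Their ratios are set beside that of LSK as a description only.

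In irradiated bone EC the ratio had no common level, at 0.54, -2.12 and 1.80, and Ube2c made up 33.6%, 93.5% and 8.63% of the mitotic sum. Left without Ube2c, an alternative added after seeing the data, it was 1.63 ± 0.43 in irradiated bone EC and 0.13 ± 0.074 in bone EC, without overlap. The mean of log2(FPKM + 1) gave the same order, with replication above mitotic genes by 1.495 ± 0.30 in irradiated bone EC and 0.54 ± 0.094 in bone EC. Without Ube2c the ratio was 0.34 ± 0.13 in 9Gy1D EC and 0.29 ± 0.04 in Esm1+ EC, and there the libraries overlapped. By the mean of log2(FPKM + 1) 9Gy1D EC lay below Esm1+ EC instead, at 0.69 ± 0.033 against 0.83 ± 0.02. Irradiated bone EC and 9Gy1D EC stand in different tables, so the gap between their ratios was not tested.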

How the data were processed

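Gene expression in 33 libraries was taken from the FPKM values that the authors deposited in 4 tables, each normalized on its own. The submitters' processing notes name the build mm10 and TopHat2 2.1.1, with HTSeq 0.6.1 and DESeq2 1.18.1. Per the labels, BMC and Lin- were made with TruSeq Stranded Total RNA and the other groups with SMART-Seq v4 and Nextera XT. For 100% of 32358 genes above 0 the values were whole multiples of a unit (tolerance 0.005), which gave the reads behind them. Median-of-ratios scaling hardly moved the median of all genes in 9Gy1D EC (0.001375 to 0.001304) and Vav1 DTX EC (0.02665 to 0.02643). It moved more in irradiated bone EC (0.0594 to -0.00473), bone EC against LSK (-0.05191 to -0.02154), Lin- (0.02766 to -0.01316) and Apln+ EC (0.04172 to 0.02085). In irradiated bone EC 2619 genes were then higher and 2776 lower, in place of 2938 and 2525. With voom, which scales reads to the library total, the medians of 9Gy1D EC and Vav1 DTX EC were 0.119 and 0.1287. Gene names that had turned into dates (27) were left out.

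Values were used as log2(FPKM + 1) and tested within a table with limma 3.58.1 (eBayes with trend, R 4.3.3, two-sided). A gene was called where its p, adjusted over all genes tested (Benjamini-Hochberg), was below 0.05. The scripts were tested on simulated data with few changed genes, where false calls exceeded the share that the threshold allows in all 6 comparisons, most in bone EC against LSK and then in irradiated bone EC against bone EC. Nearly all false calls were genes with a mean below 10 FPKM, so calls of low genes are less certain than their adjusted p states. A pseudocount of 0.1, a mean of at least 5 FPKM, no filter, TPM, median-of-ratios scaling, a replicate block, voom on recovered reads and leaving out each library were the alternatives. Added after seeing the data were the mitotic sum without Ube2c and averaged Esm1+ EC replicates 1 and 2.

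The 44 members, the pathway and marker lists and the rule for named genes (25 members followed throughout, and in each comparison the 3 largest differences in each direction, members called against their set and up to 3 called genes of each pathway list) were chosen with earlier results of these data known. Positions are from GENCODE vM21 (GRCm38) and promoters from RefSeq (GRCm38.p6).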

Additional observations from a re-analysis of the deposited data

How the results depend on the processing

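In irradiated bone EC the members gave 2 higher and 37 to 40 lower calls when single libraries were left out, and in 9Gy1D EC 0 to 1 higher and 36 to 41 lower. For bone EC against LSK these ranges were 14 to 19 higher and 8 to 13 lower, for Lin- against BMC 11 to 15 and 1 to 10, for Vav1 DTX EC 0 to 23 and 1 to 3, and for Apln+ EC 0 to 3 and 0 to 3. Over all genes, leaving out single libraries gave 1836 to 3056 higher and 1610 to 2863 lower in irradiated bone EC, 3018 to 3896 and 2591 to 4233 in bone EC against LSK, 2474 to 3456 and 2274 to 4242 in Lin-, 400 to 2375 and 724 to 2389 in Vav1 DTX EC, 80 to 1877 and 67 to 1958 in Apln+ EC, and 1464 to 2400 and 1635 to 2754 in 9Gy1D EC. The difference of the replication to mitotic log2 ratio then ranged from -0.57 to 1.39 in irradiated bone EC, from -1.17 to -0.88 in bone EC against LSK, from 0.43 to 0.84 in Lin-, from 0.24 to 0.33 in Vav1 DTX EC, from -0.00039 to 0.04 in Apln+ EC and from -0.044 to 0.067 in 9Gy1D EC.

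Under TPM the members gave 7 higher and 24 lower for bone EC against LSK (2332 and 7904 over all genes), with Ccnb2 at -0.076, Cdc20 at -0.19, Tpx2 at -0.60, Nusap1 at -0.038, Cdt1 at -0.16 and Ccne2 at -0.0043, each positive on the FPKM scale. TPM also gave 2 members higher in Vav1 DTX EC (2880 over all genes) and 2 in 9Gy1D EC, and voom on recovered reads 23 lower for bone EC against LSK and 2 higher in 9Gy1D EC. With no filter 1 member was lower in Lin-, 0 were higher in Vav1 DTX EC and 6630 genes were lower in bone EC against LSK. Requiring a mean of at least 5 FPKM, which tests fewer genes, gave 1622 lower in irradiated bone EC, 2139 lower in bone EC against LSK, 1025 lower in Vav1 DTX EC, 184 higher and 261 lower in Apln+ EC and 1588 higher in 9Gy1D EC. With Esm1+ EC replicates 1 and 2 averaged, chosen after seeing the data, 1655 genes were lower in 9Gy1D EC. Mki67 in Lin- ranged from -0.56 to 0.36 and Mcm2 in Vav1 DTX EC from -0.27 to 0.40 over the left-out libraries. The ratio difference was -1.46 (Mcm2 to Mcm7 and Pcna), -0.66 (mean log2) and -0.80 (without Ube2c) for bone EC against LSK, 0.20 without Ube2c for Vav1 DTX EC, 0.092 by mean log2 for Apln+ EC, and 0.093 (Mcm2 to Mcm7 and Pcna) and -0.15 (mean log2) for 9Gy1D EC. Where no cause follows from the alternative itself, the cause was not tested.

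Replicate numbers were not taken as pairs, since in no comparison was every same-number correlation over 0.1. With 3 libraries per group this rule cannot decide whether libraries were paired. In Apln+ EC against diaphysis EC the correlations were 0.332, -0.0627 and 0.297 for replicates 1, 2 and 3. With the replicate number as a block, the members in Vav1 DTX EC gave 0 higher and 1 lower, with 738 genes higher, through Gins2 and Ube2c. The block also ended the calls of Mcm3 in irradiated bone EC, of Cdc20 and Foxm1 in Lin- and of Ttk, Mcm2 and Cdc45 in bone EC against LSK, added that of Ccnb1 in Lin- and changed no other member's call. Depth limits low members most: 5 of 1452 member values rest on under 10 reads.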

Other observations

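Single libraries held the highest or lowest value of their group in most of the 44 members, also in groups beyond those described with the comparisons. Esm1+ EC replicate 3 was highest in 41 members, diaphysis EC replicate 1 in 36 and replicate 3 lowest in 38, and Vav1 DTX EC replicate 3 highest in 35. In Esm1+ EC the early neutrophil sum was 2341, 2381 and 4046 FPKM, highest in the same replicate 3. The mitotic mean of log2(FPKM + 1) stood at 4.64, 4.66 and 5.12 there and at 4.77, 4.61 and 4.23 in diaphysis EC.

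Transcripts of skeletal muscle other than Tnnc2 stood out in the same libraries of the bone EC groups. Ckm, muscle creatine kinase, stood at 0, 463 and 0.779 in bone EC and 74.5, 1679 and 1.10 in irradiated bone EC, and Mylpf, a myosin light chain, at 6.18, 347 and 4.67 and 67.8, 973 and 1.76. Replicate 2 was the highest library of both groups in each gene. Cdk1 and Mki67 were not raised in those libraries beyond the other replicates by a comparable amount, at 26.2, 31.8 and 26.0 and 20.1, 20.5 and 14.8 in bone EC. Muscle transcripts were also present outside the bone EC groups, with Ckm at 54.0 in Vav1 control EC replicate 2 and 58.5 in 9Gy1D EC replicate 3. The muscle genes were chosen after their values were seen.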
